A study of Mus musculus with 11 samples.

Results

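The 10 genes described here are *Bcl2*, *Bcl2l1*, *Mcl1*, *Bax*, *Bak1*, *Bcl2l11*, *Bbc3*, *Pmaip1*, *Bid* and *Bad*, core members of the BCL2 family that decides whether a cell starts mitochondrial apoptosis. They were taken by gene symbol, 10 of 18667 genes listed, and all 10 were among the 16169 genes that averaged at least 0.1 FPKM (fragments per kilobase of transcript, scaled to the mapped fragments of the library) and were tested. Whole cochleae were taken at an age of 2 months and their RNA was sequenced. *Atf6*+/+ (WT, n = 5) and *Atf6*-/- (ATF6 Knockout, n = 6) cochleae were compared, each library from an individual cochlea. Per the study's methods, the animals were littermates, males and females, on a pure C57BL/6J background, a strain that all groups share and that carries a *Cdh23* allele causing age-related hearing loss. The knockout is of the whole animal, not of a cell type, and no treatment was given.

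BCL2 family proteins act at the mitochondrial outer membrane. Pro-survival members (BCL2, BCL-XL, MCL1) bind and restrain the effectors BAX and BAK, which otherwise form pores that release cytochrome c and start the caspase cascade. BH3-only members sense stress: they block the pro-survival proteins or switch on the effectors, and in prolonged ER stress the transcription factors CHOP and ATF4 are known to act on several of their genes. In the inner ear, this mitochondrial route is a known way in which hair cells and neurons die after noise or ototoxic drugs. RNA levels do not show the cleavage, phosphorylation and degradation by which many of these proteins are controlled, and gene-level values do not separate splice forms such as the long and short products of *Bcl2l1*.

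The targeted gene, *Atf6*, lay between 8.25 and 10.6 FPKM in *Atf6*+/+ libraries and between 3.83 and 4.59 FPKM in *Atf6*-/- libraries, with a log2 fold change (log2FC, *Atf6*-/- minus *Atf6*+/+) of -1.13 (limma adjusted p = 5.2e-05). Per the study, the allele has a premature stop codon and no ATF6 protein is made, so the RNA that remains is not a measure of remaining protein. Marker genes of the cochlea were present in both genotypes, and no marker found was at 0 in all libraries. Summed FPKM of 7 of 8 hair cell markers was 35.6 to 115 in *Atf6*+/+ and 65.8 to 147 in *Atf6*-/- cochleae, and that of 6 supporting cell markers was 338 to 595 and 433 to 595. Markers of marrow cells were present too, and averaged higher in *Atf6*+/+ libraries. All 10 neutrophil markers (summed FPKM 258 to 3206 in *Atf6*+/+ and 93.4 to 1207 in *Atf6*-/-), all 8 B cell markers (from 9.35 to 34.2 and from 7.31 to 15.2) and all 8 erythroid markers (from 4827 to 46394 and from 2870 to 9376) were found. *Atf6*+/+ replicates 3 and 4 stood apart, with the highest marrow scores (5.37 and 4.47, the average of the mean log2 levels of the 3 marker lists, against 1.69 to 3.83 in the other libraries) and the lowest hair cell scores (1.62 and 1.65, against 2.26 to 3.23). Results are therefore also given with the marrow score in the model and without this pair of libraries. The parts of the score did not always rank alike. The neutrophil score was 5.69 in *Atf6*-/- replicate 4 and 5.64 in *Atf6*+/+ replicate 4, and the erythroid score was highest in *Atf6*+/+ replicate 5 (7.98). In whole tissue, fewer cells of a type and less RNA per cell cannot be told apart.

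The members spanned a wide range of levels. *Bcl2l1*, which encodes the pro-survival protein BCL-XL, was the most abundant at 72.3 FPKM on average over the 11 libraries. The effector gene *Bax* followed at 38.8 FPKM on average, and *Bcl2l1* was above *Bax* in 11 of 11 libraries, while *Mcl1* was above *Bax* in *Atf6*+/+ replicate 3. *Bad*, a BH3-only gene whose protein is held inactive by growth factor kinases, averaged 32.1 FPKM and *Mcl1*, a short-lived survival protein, 29.8 FPKM. These neighbours were not separated beyond their spread, since *Bad* was above *Mcl1* in 9 of 11 libraries and their ranges (27.1 to 35.0 and 25.9 to 38.2 FPKM) overlapped. The second effector gene, *Bak1*, averaged 18.3 FPKM.

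A further step down were *Bcl2* at 5.57 FPKM and *Bcl2l11*, which encodes BIM, at 4.83 FPKM, with overlapping ranges and *Bcl2* above *Bcl2l11* in 10 of 11 libraries. *Bid*, whose protein links caspase-8 to the mitochondria, averaged 3.71 FPKM, and *Bbc3*, which encodes the p53 target PUMA, 2.74 FPKM. *Pmaip1*, which encodes NOXA, a partner of MCL1, was at 0.266 FPKM, at the 5.79 percentile of all genes tested by mean level, while *Bcl2l1* was at the 92.8 percentile. *Bcl2l1* made up 33.1% ± 2.18 (SD, n = 5) of the summed FPKM of the 10 genes in *Atf6*+/+ and 36.03% ± 1.51 (SD, n = 6) in *Atf6*-/- cochleae.

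**Figure D1:**
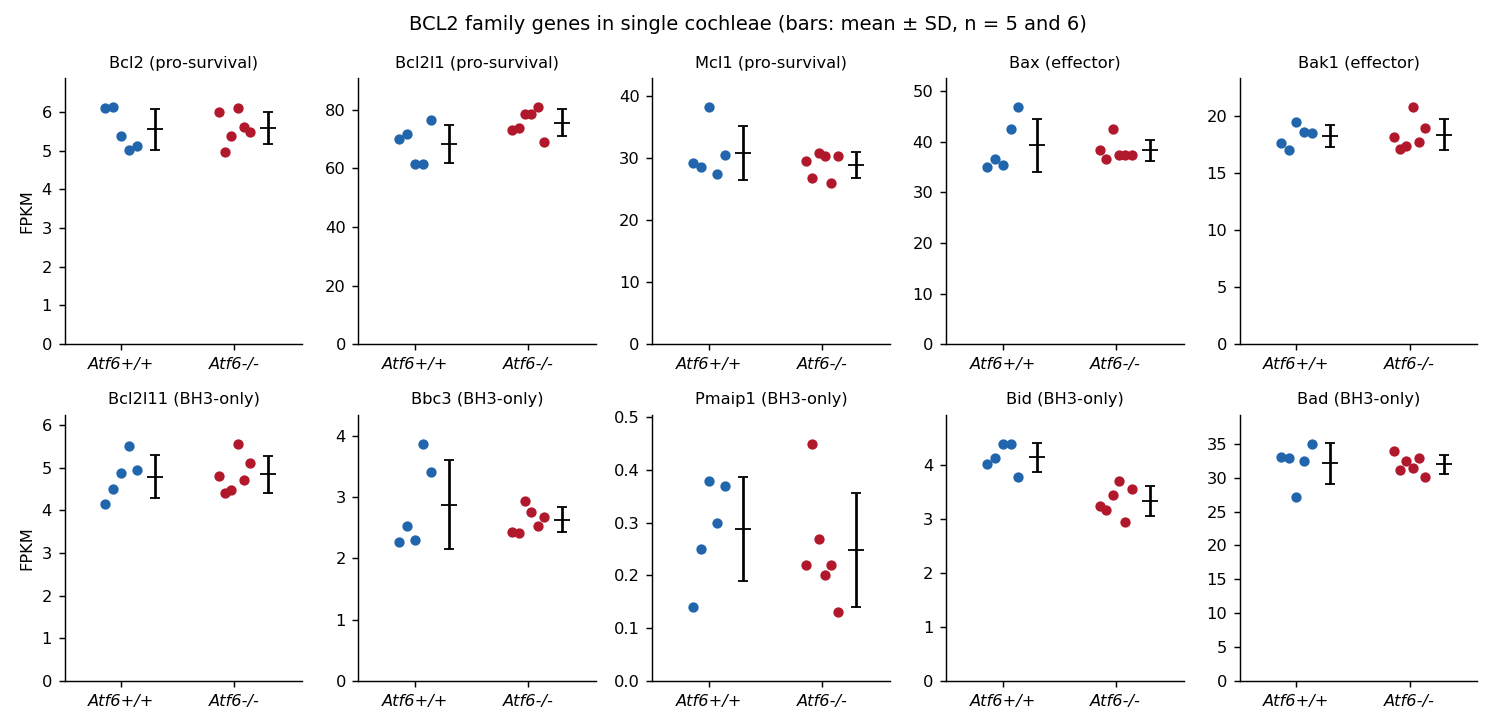
Each panel plots the FPKM of 1 gene in single libraries, with *Atf6*+/+ in blue and *Atf6*-/- in red, and black bars give the mean ± SD (n = 5 and n = 6). *Bid* is the only panel in which the genotypes do not overlap (lowest *Atf6*+/+ value 3.78, highest *Atf6*-/- value 3.70), and *Bcl2l1* is shifted upward with overlap.

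To ask whether loss of *Atf6* moved the apoptosis machinery toward survival or death, each gene was compared between genotypes in a model fitted to all genes. Of the 10 members, 2 were called, by a limma p no larger than 0.05 before adjustment and a log2FC beyond 0.05 in either direction, a reading of the lenient threshold that the study describes as a fold change: *Bcl2l1* was higher and *Bid* lower in *Atf6*-/- cochleae. That rule called 9.85% of all genes tested (4.48% higher and 5.37% lower), so the count of members was 1 above what that rate gives for 10 genes, rounded to whole genes. With Benjamini-Hochberg adjustment over all genes tested, 0 members had a limma adjusted p under 0.05, as 0.068% of all genes did. The other 8 members had log2FC values from -0.16 to 0.018. The median of the 10 was -0.015, against -0.013 for all genes tested, with 4 members higher and 6 lower. Rescaled to TPM (values made to sum to the same total in each library), the tally turned to 6 higher and 4 lower, with a median of 0.041 against 0.043 for all genes, and 2 members were called, where 11.3% of all genes were.

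Among the pro-survival genes, *Bcl2l1* measured 70.2, 71.9, 61.5, 61.6 and 76.4 FPKM in *Atf6*+/+ replicates 1 to 5. In *Atf6*-/- cochleae it ranged from 68.9 to 81.0 FPKM with a median of 76.0 FPKM. *Atf6*+/+ replicates 3 and 4 were the lowest of all, and the other *Atf6*+/+ libraries overlapped the *Atf6*-/- range. The means were 68.3 ± 6.59 FPKM (SD, n = 5) and 75.7 ± 4.47 FPKM (SD, n = 6), a log2FC of 0.15 (standard error 0.066, limma adjusted p = 0.492). An exact two-sided permutation test over all 462 labellings gave p = 0.0541. Leaving out 1 library at a time, the call was made in 6 of 11 fits. It was lost without *Atf6*+/+ replicate 3 or 4 or without *Atf6*-/- replicate 3, 4 or 5. The log2FC was 0.11 at its lowest, without *Atf6*+/+ replicate 3 or 4.

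*Bcl2*, the founding member of the family, measured 6.09, 6.13, 5.38, 5.01 and 5.13 FPKM in *Atf6*+/+ cochleae, and from 4.97 to 6.11 FPKM with a median of 5.55 FPKM in *Atf6*-/- cochleae. The values were interleaved, and the log2FC was 0.013 (95% interval -0.16 to 0.18, limma adjusted p = 0.968). *Mcl1* measured 29.2, 28.6, 38.2, 27.3 and 30.5 FPKM in *Atf6*+/+ cochleae, and from 25.9 to 30.8 FPKM with a median of 29.9 FPKM in *Atf6*-/- cochleae. Its highest value was that of *Atf6*+/+ replicate 3, the library with the highest marrow score. The log2FC of *Mcl1* was -0.082 (95% interval -0.26 to 0.099, limma adjusted p = 0.749), and -0.0013 without that library.

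The pore-forming effectors differed little on average. *Bax* measured 35.1, 36.7, 35.4, 42.6 and 46.9 FPKM in *Atf6*+/+ cochleae, and from 36.7 to 42.5 FPKM with a median of 37.5 FPKM in *Atf6*-/- cochleae. *Atf6*+/+ replicates 4 and 5 held the highest values of all libraries, so the spread was wider in *Atf6*+/+ (SD 5.22 FPKM, n = 5) than in *Atf6*-/- (SD 2.12 FPKM, n = 6) cochleae, a difference that was not tested. *Atf6*-/- replicate 3, which had the highest *Bax* value of its genotype, also stood apart in its skeletal muscle score (2.42, the mean log2 level of 7 markers, against -1.85 to -0.18 in the other libraries), and the part of muscle in that value was not tested. The log2FC of *Bax* was -0.030 (95% interval -0.20 to 0.14, limma adjusted p = 0.914). *Bak1* measured 17.7, 17.1, 19.5, 18.6 and 18.5 FPKM in *Atf6*+/+ cochleae, and from 17.1 to 20.8 FPKM with a median of 18.0 FPKM in *Atf6*-/- cochleae. The groups overlapped throughout, with a log2FC of 0.0051 (95% interval -0.12 to 0.13, limma adjusted p = 0.985). Its spread within genotypes was the smallest of the 10 members, at the 17.1 percentile of all genes tested.

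Among the BH3-only genes, *Bid* measured 4.02, 4.13, 4.40, 4.39 and 3.78 FPKM in *Atf6*+/+ cochleae. In *Atf6*-/- cochleae it ranged from 2.95 to 3.70 FPKM with a median of 3.34 FPKM. The genotypes did not overlap for 1 of the 10 members, *Bid*, while they did not overlap for 1.25% of all genes tested (0.606% lower and 0.643% higher in *Atf6*-/-), though the *Bid* values of *Atf6*+/+ replicate 5 and *Atf6*-/- replicate 4 were close. The means were 4.14 ± 0.262 FPKM (SD, n = 5) and 3.34 ± 0.277 FPKM (SD, n = 6), a difference of -19.4%. The log2FC was -0.30 (standard error 0.079, 95% interval -0.48 to -0.13, limma adjusted p = 0.323). An exact two-sided permutation test gave p = 0.00433, where the smallest value it can give is 0.00216. With each library left out in turn, *Bid* was called in 11 of 11 fits, with log2FC values from -0.34 to -0.27. With the marrow score in the model it was not called (-0.22).

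The upstream sequences of *Bid* and *Bcl2l1*, the 2 members called, are shown because they are the regulatory DNA next to the start of each transcript. They are the 250 bases before the RefSeq start in GRCm38.p6, read 5′ to 3′ on the strand of the gene, with CpG dinucleotides in capitals. *Bid* lies at chr6:120916825-120917074 (minus strand). *Bcl2l1* has 3 RefSeq starts, and the window before the farthest upstream of them is at chr2:152831729-152831978 (minus strand).
Bid: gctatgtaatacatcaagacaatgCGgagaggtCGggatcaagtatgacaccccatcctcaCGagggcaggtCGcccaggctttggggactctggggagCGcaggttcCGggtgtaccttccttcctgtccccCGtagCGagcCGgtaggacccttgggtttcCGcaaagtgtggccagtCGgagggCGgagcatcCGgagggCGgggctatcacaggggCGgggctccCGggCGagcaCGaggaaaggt
Bcl2l1: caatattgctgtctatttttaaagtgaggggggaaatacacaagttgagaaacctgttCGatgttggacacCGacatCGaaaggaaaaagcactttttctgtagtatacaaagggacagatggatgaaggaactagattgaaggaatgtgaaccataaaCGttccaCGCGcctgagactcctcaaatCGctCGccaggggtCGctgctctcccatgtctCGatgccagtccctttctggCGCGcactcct

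The *Bid* window was GC-rich (63.6%) with 18 CpG dinucleotides, while the *Bcl2l1* window had 47.6% GC and 12. RefSeq promoters were matched for 9 of the 10 members, with 15 start sites in all. Their upstream GC content ranged from 47.6% to 81.6% with a median of 64.4%, against 52.4% over 32851 mouse promoters. In windows of 250 bases before and 50 after each start, both strands were searched for CCAAT followed after 9 bases by CCACG (ERSE) and ATTGG followed after 1 base by CCACG (ERSE-II), elements to which ATF6 is known to bind, for TGACGTGG (UPRE) and for TTGCATCA, a letter sequence of the ATF4 and CHOP response element. None of the 15 windows held any of these letter sequences, which were in 0.119%, 0.0365%, 0.676% and 0.895% of all promoters. At such low rates, 15 windows would seldom hold any of them, so their absence cannot decide whether these factors act on the members. The bases after the starts of *Bbc3*, *Bcl2* and *Mcl1* were not found in the opening of a listed transcript of their gene.

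The other BH3-only genes did not pass the test. *Bad* measured 33.1, 32.9, 27.1, 32.5 and 35.0 FPKM in *Atf6*+/+ cochleae, and from 30.1 to 33.9 FPKM with a median of 32.0 FPKM in *Atf6*-/- cochleae. The lowest value was again that of *Atf6*+/+ replicate 3, and the log2FC of *Bad* was -0.0009 (95% interval -0.14 to 0.13, limma adjusted p = 0.998). *Bcl2l11*, whose protein BIM can bind every pro-survival member, measured 4.15, 4.51, 4.87, 5.51 and 4.94 FPKM in *Atf6*+/+ cochleae, and from 4.40 to 5.57 FPKM with a median of 4.765 FPKM in *Atf6*-/- cochleae. Its log2FC was 0.018 (95% interval -0.17 to 0.21, limma adjusted p = 0.960).

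*Bbc3* measured 2.26, 2.52, 2.30, 3.87 and 3.40 FPKM in *Atf6*+/+ cochleae, and from 2.42 to 2.94 FPKM with a median of 2.605 FPKM in *Atf6*-/- cochleae. As for *Bax*, also a known p53 target, the highest values were those of *Atf6*+/+ replicates 4 and 5. Its log2FC was -0.095 with a wide 95% interval of -0.40 to 0.21 (limma adjusted p = 0.840). *Pmaip1* measured 0.14, 0.25, 0.38, 0.30 and 0.37 FPKM in *Atf6*+/+ cochleae, and from 0.13 to 0.45 FPKM with a median of 0.22 FPKM in *Atf6*-/- cochleae. At this low level its log2FC was -0.16 with a 95% interval from -0.73 to 0.40 (limma adjusted p = 0.849), so neither a rise nor a fall could be told from no difference.

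The marrow markers differed in level between genotypes, and the members were therefore also fitted with the marrow score. In a model with both genotype and marrow score, the log2FC of *Bcl2l1* was 0.056 (limma adjusted p = 0.980) and that of *Bid* was -0.22 (limma adjusted p = 0.932), and neither was called. *Bad* was called instead, lower in *Atf6*-/- cochleae by a log2FC of -0.13 (limma adjusted p = 0.932), in a model that called 5.26% of all genes. *Bad* was lower where the marrow score was higher, with a slope of -0.11 in log2 level per unit (limma adjusted p = 0.233), where 9.77% of all genes had a limma p of at most 0.05 for this slope. The slopes were -0.078 for *Bcl2l1* (limma adjusted p = 0.633) and 0.073 for *Bid* (limma adjusted p = 0.767).

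Without *Atf6*+/+ replicates 3 and 4, 1 member was called, where 6.21% of all genes were. It was *Bid*, at a log2FC of -0.25 (limma adjusted p = 0.764), and *Bcl2l1* was at 0.054 (limma adjusted p = 0.901). The part of marrow cells in these differences was not tested.

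**Figure D2:**
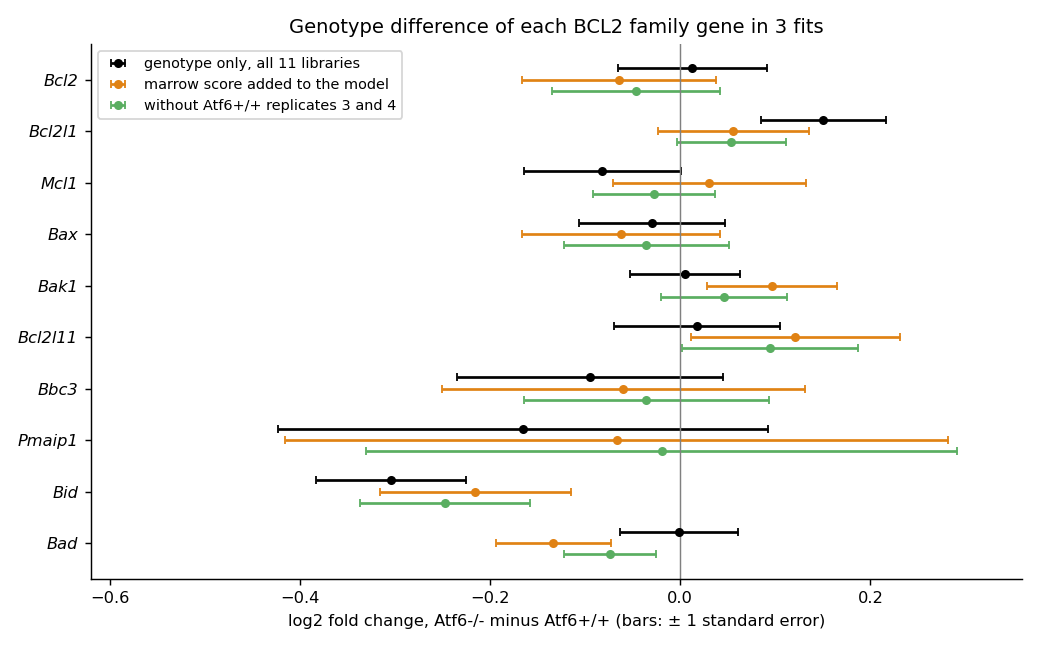
The horizontal axis gives the log2FC (*Atf6*-/- minus *Atf6*+/+) of each member, and bars give ± 1 standard error, in the fit of all 11 libraries, the fit with the marrow score and the fit without *Atf6*+/+ replicates 3 and 4. *Bid* lies below 0 in all 3 fits (-0.30, -0.22 and -0.25), whereas *Bcl2l1* goes from 0.15 to 0.056 and 0.054.

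**Figure D3:**
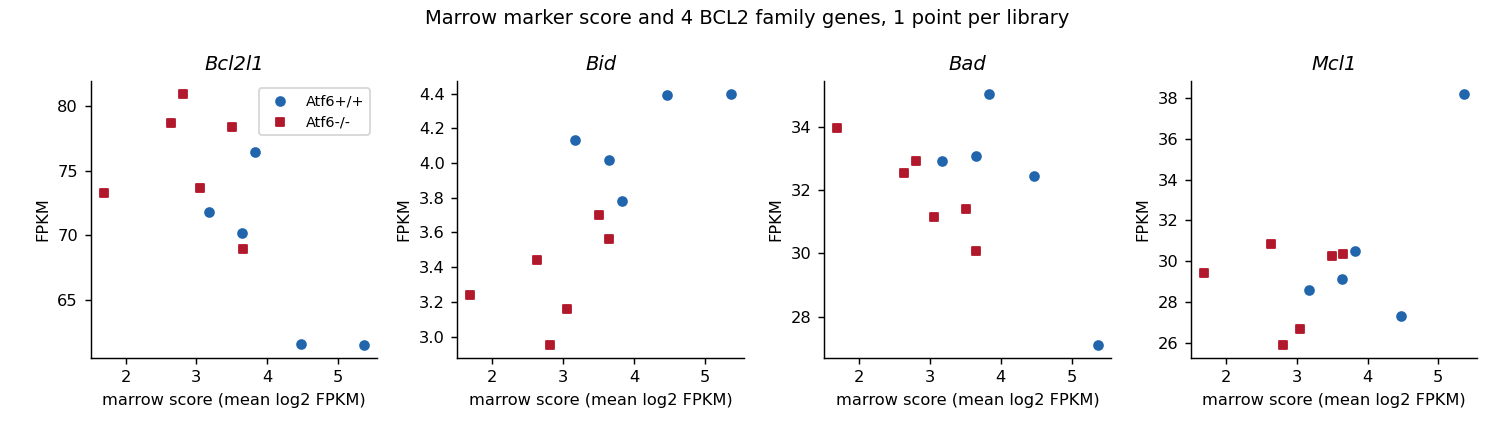
FPKM of *Bcl2l1*, *Bid*, *Bad* and *Mcl1* (vertical axes) is plotted against the marrow score (horizontal axes, the average of the mean log2 FPKM of the 3 marrow marker lists), 1 point per library. *Atf6*+/+ replicate 3, at a score of 5.37, has the highest *Mcl1* (38.2) and *Bid* (4.40) and the lowest *Bad* (27.1) and *Bcl2l1* (61.5) values.

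To compare the arms of the family directly, the mean log2 level of the 3 pro-survival genes minus that of the 7 pro-death genes was taken in each library. This balance was 2.02, 1.91, 1.85, 1.504 and 1.68 in *Atf6*+/+ cochleae, and from 1.77 to 1.95 in *Atf6*-/- cochleae. The *Atf6*-/- values lay inside the *Atf6*+/+ range. The means were 1.79 ± 0.204 (SD, n = 5) and 1.90 ± 0.068 (SD, n = 6), a difference of 0.11 that was smaller than the spread among *Atf6*+/+ libraries. The difference was 0.053 with the marrow score, 0.036 without *Atf6*+/+ replicate 4 and 0.032 without *Atf6*+/+ replicates 3 and 4. *Atf6*+/+ replicate 4 also had the lowest stria vascularis score (1.58, the mean log2 level of 6 markers, against 2.84 to 4.53 in the other libraries), and the part of tissue makeup in its balance was not tested. Pro-survival genes made up 50.7% ± 2.57 (SD, n = 5) of the summed FPKM of the members in *Atf6*+/+ and 52.5% ± 0.652 (SD, n = 6) in *Atf6*-/- cochleae, again with overlap.

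The ratio of *Bcl2l1* to *Bid*, the 2 members called, was 17.5, 17.4, 13.98, 14.03 and 20.2 in *Atf6*+/+ cochleae. In *Atf6*-/- cochleae it ranged from 19.4 to 27.5. *Atf6*+/+ replicate 5 and *Atf6*-/- replicate 6 overlapped, and since both genes were chosen for their difference the ratio was not tested. The ratio of *Bcl2l1* to *Bax*, survival protein to effector, was 1.75 ± 0.231 (SD, n = 5) in *Atf6*+/+ and 1.98 ± 0.134 (SD, n = 6) in *Atf6*-/- cochleae, with overlapping ranges.

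**Figure D4:**
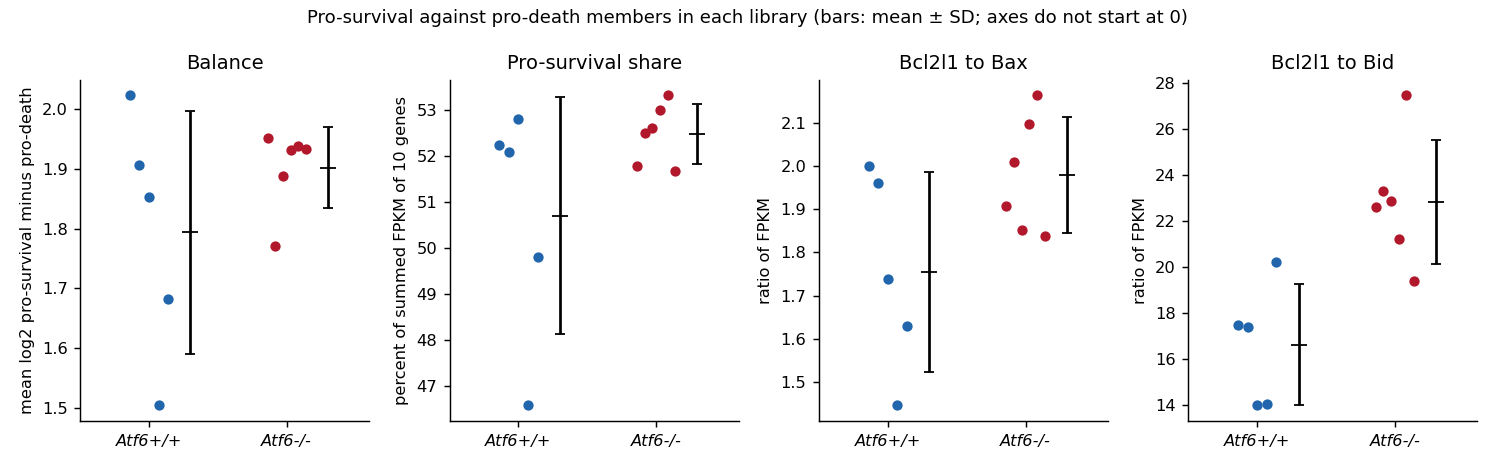
Each panel plots a measure of pro-survival against pro-death genes in single libraries, with *Atf6*+/+ in blue and *Atf6*-/- in red, and black bars give the mean ± SD (n = 5 and n = 6). The *Atf6*-/- libraries of the balance sit between 1.77 and 1.95, inside the *Atf6*+/+ range of 1.504 to 2.02.

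The genes closest to each member in their variation within genotypes were then listed, by Pearson correlation of log2 levels centred on each genotype, over 11 libraries and genes averaging at least 1 FPKM. For *Bcl2l1* they were *Arrdc2* (r = 0.93), *Klf15* (r = 0.93) and *Rab20* (r = 0.91), and for *Bid* they were *Mex3b* (r = 0.95), *Lgals4* (r = 0.91) and *Glipr2* (r = 0.89). *Bax* was closest to *Ndufa4l2* (r = 0.96), *Bbc3* to *Ilk* (r = 0.97) and *Bad* to *Metrn* (r = 0.96). These values are a description of 11 libraries that share depth, tissue makeup and marrow content, and the best of 13610 genes is high for every member, from *Bak1* (r = 0.93 with *Tbc1d22b*) to *Bbc3*.

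Beyond the 10 members, 14 of 15 other BCL2 family genes were tested, and *Bcl2l10* was below the filter. Of these, 1 was higher and 2 were lower by the unadjusted rule, which called 9.85% of all genes (4.48% higher and 5.37% lower), and 0 had a limma adjusted p under 0.05. *Hrk*, a BH3-only gene of neurons, averaged 1.16 ± 0.346 FPKM in *Atf6*+/+ (SD, n = 5) and 1.68 ± 0.291 FPKM in *Atf6*-/- (SD, n = 6), a log2FC of 0.52 (limma adjusted p = 0.431), but was not called with the marrow score (0.28, limma adjusted p = 0.963) or without *Atf6*+/+ replicates 3 and 4 (0.23). *Bnip3*, a hypoxia-induced mitophagy receptor, had a log2FC of -0.088 (limma adjusted p = 0.491) and was called in 4 of 11 fits with 1 library removed, and neither with the marrow score (-0.081) nor without *Atf6*+/+ replicates 3 and 4 (-0.064).

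*Bcl2a1a*, a pro-survival gene of blood cells, was at 0.332 and 0.135 FPKM, a log2FC of -0.97 (limma adjusted p = 0.400). Its near-identical copies *Bcl2a1b* and *Bcl2a1d* had log2FC values of -0.15 and -0.51 and were not called. A further copy, *Bcl2a1c*, was not in the list and was added after its values were seen, with a log2FC of -0.40 (limma adjusted p = 0.813). The division of reads among these copies is uncertain. Among the genes not called, *Bcl2l2*, a pro-survival gene, was nearly level at 38.4 and 38.3 FPKM (95% interval of the log2FC -0.086 to 0.075). *Bok*, a relative of *Bax*, had a log2FC of -0.29 (limma adjusted p = 0.538), and the remaining genes, *Bmf*, *Bik*, *Bnip3l*, *Bcl2l12*, *Bcl2l13*, *Bcl2l14* and *Bcl2l15*, lay between -0.12 and 0.29. *Bnip3l*, a mitophagy receptor like *Bnip3*, had a log2FC of -0.11 in the fit of all libraries and was called lower without *Atf6*+/+ replicates 3 and 4 (-0.20). In that fit 2 of the 14 genes were called, *Bcl2a1a* and *Bnip3l*, both lower, where 6.21% of all genes were. With the marrow score 1 of the 14, *Bcl2a1a*, was called, a share of 7.14% against 5.26% of all genes.

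Downstream of the mitochondria, 24 listed genes (factors released from mitochondria, the apoptosome, some but not all caspases, their inhibitors and substrates, and outer membrane channels) were tested, and 2 were lower and 0 higher by the unadjusted rule. That is 8.33% of the list, near the 9.85% of all genes. The median log2FC was -0.075, with 7 higher and 17 lower. Both called genes encode IAP family proteins, *Birc3* at -0.19 (limma adjusted p = 0.475) and *Birc5*, which encodes survivin and is a gene of dividing cells, at -1.07 (limma adjusted p = 0.475). With the marrow score, *Birc5* was at -0.024 and 0 of the 24 were called, where 5.26% of all genes were, and *Birc5* had a slope of 0.87 per unit of marrow score. *Casp9* and *Apaf1*, the core of the apoptosome, had log2FC values of 0.041 and -0.11 and were not called.

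Among 31 genes listed as regulators of BCL2 family genes or proteins, 6 were higher and 2 lower by the unadjusted rule. That is 25.8% of the list, where 9.85% of all genes were called (4.48% higher and 5.37% lower). The list was chosen with earlier results of these data known, so its share cannot be read as an excess. The split depended on the scaling, with 8 higher and 0 lower in TPM, and 1 regulator (*Atf5*) had a limma adjusted p under 0.05. Of the p53 pathway, *Trp53* was at 32.3 and 31.2 FPKM (log2FC -0.045, limma adjusted p = 0.831). Its target *Mdm2* was level at 17.8 and 17.7 FPKM (log2FC -0.0032, limma adjusted p = 0.987), and *Trp53inp1* was not called (0.32, limma adjusted p = 0.536). A further target, *Cdkn1a*, an inhibitor of the cell cycle, was higher, at 76.3 ± 6.39 FPKM (SD, n = 5) and 88.2 ± 4.97 FPKM (SD, n = 6), with a log2FC of 0.21 (limma adjusted p = 0.362) and of 0.23 with the marrow score. *Foxo3*, a factor that can switch on *Bcl2l11* and *Bbc3*, had a log2FC of 0.27 (limma adjusted p = 0.407), and of 0.17 with the marrow score, where it was not called.

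Of the 10 ER stress factors in the list, 4 were called higher, with unequal support, where 4.48% of all genes were. The study had already listed *Chac1*, *Trib3*, *Atf4* and *Itpr1* as higher in these data, so this share has the same limit. *Ern1*, *Eif2ak3*, *Tnfrsf10b*, *Itpr1* and *Tmbim6* were not called. *Atf5* had a log2FC of 0.87 (limma adjusted p = 0.00044) and *Chac1* of 0.88 (limma adjusted p = 0.294), and both were called with the marrow score and in 11 of 11 fits with 1 library removed. *Trib3* had a log2FC of 0.46 (limma adjusted p = 0.457) and *Atf4* of 0.19 (limma adjusted p = 0.495). These were called in 7 and 3 of those 11 fits, and neither was called with the marrow score. *Ddit3*, which encodes CHOP, a known repressor of *Bcl2* and activator of *Bcl2l11*, was at 27.4 and 23.6 FPKM and was not called (log2FC -0.22, limma adjusted p = 0.505). With the marrow score *Ddit3* was called lower, at a log2FC of -0.30 (limma adjusted p = 0.932). *Ppp3ca*, a catalytic subunit of the calcineurin phosphatase that acts on BAD, was lower by a log2FC of -0.15 (limma adjusted p = 0.437) with no overlap of genotypes, as for 0.606% of all genes. It was not called with the marrow score (-0.13) or without *Atf6*+/+ replicates 3 and 4 (-0.091). *Fbxw7*, part of a ubiquitin ligase for MCL1, was at -0.13 (limma adjusted p = 0.462). With the marrow score, 4 of the 31 regulators were called (*Atf5*, *Chac1* and *Cdkn1a* higher, *Ddit3* lower), where 5.26% of all genes were. *Foxo3*, *Trib3*, *Atf4*, *Ppp3ca* and *Fbxw7* lost their calls. Without *Atf6*+/+ replicates 3 and 4, 5 were called, all higher (*Atf5*, *Chac1*, *Trib3*, *Atf4* and *Cdkn1a*), where 6.21% of all genes were.

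**Figure D5:**
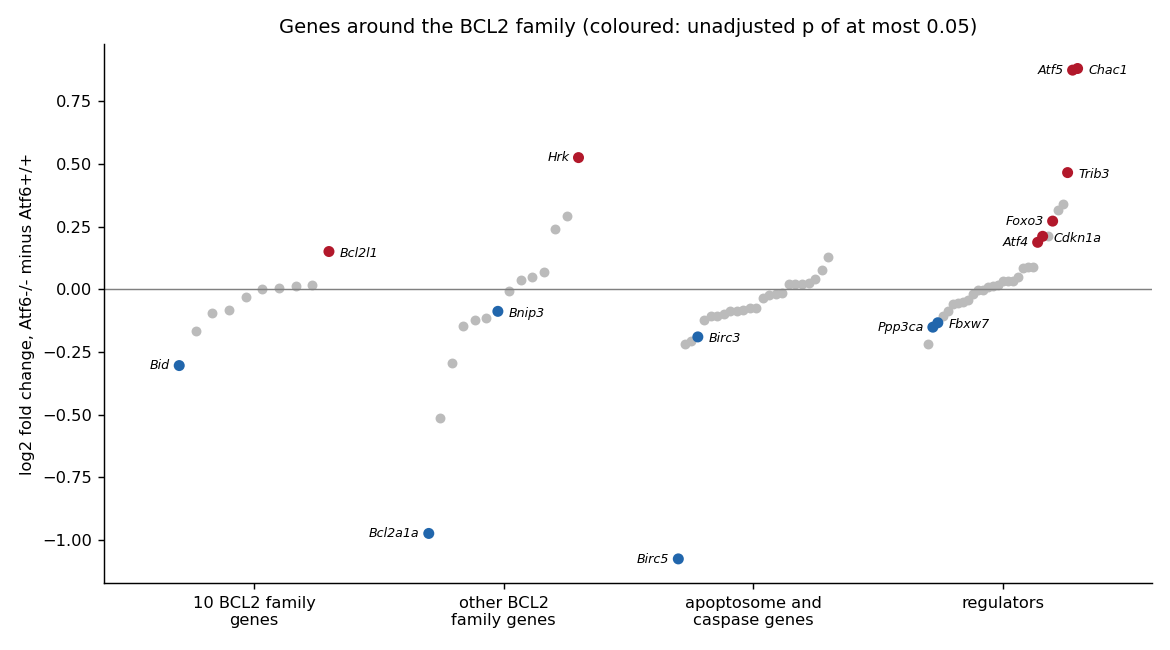
Each point is the log2FC (*Atf6*-/- minus *Atf6*+/+) of 1 gene in the members and the 3 lists around them, and coloured points passed an unadjusted p of at most 0.05. The numbers called were 2 of 10 members, 3 of 14 other family genes, 2 of 24 apoptosome and caspase genes and 8 of 31 regulators.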

How the data were processed

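FPKM values of whole cochleae were used as deposited. Per the submitters' processing notes and the study's methods, the authors aligned reads with HISAT2 (2.0.4) to GRCm39 and estimated expression with RSEM (version 1.2.12 in the notes, another in the methods), and deposited FPKM with 2 decimals. The methods state 30 M paired-end reads per sample. The depth reached in each library is unknown, and reads could not be recovered from the values. Columns of the authors' own comparisons (fold changes, p-values) were not used. Samples were grouped by genotype from their labels.

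Genes averaging at least 0.1 FPKM were fitted as log2(FPKM + 0.1) with limma (3.58.1, R 4.3.3), with genotype as the only term, so fold changes of low genes are understated. Benjamini-Hochberg adjustment covered all genes tested. The fit was tested on simulated data. As a reading of the study's threshold, which does not name the scale of the fold change or an adjustment, genes were called where the p before adjustment was no larger than 0.05 and the log2 fold change went beyond 0.05 in either direction. Exact permutation tests compared group means over all 462 labellings with numpy (2.4.6). The p-values measure the spread between these samples, since which cochleae share an animal or litter is not given in the sources used here. Scores of neutrophil, erythroid and B cell markers (mean log2 levels) were averaged into the marrow score.

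Named genes were the 10 members, *Atf6*, the listed other BCL2 family genes (*Bcl2a1c* was added after its values were seen), the called genes of the other lists with *Casp9*, *Apaf1*, *Trp53* and *Ddit3*, and the 3 genes most correlated with each member, of which some are printed; 1 further gene of this rule is not reported here. Members and lists were chosen with earlier results of these data known. Alternatives were other pseudocounts, filters and scalings, a robust variance, a replicate block, the marrow score and leaving out libraries. Promoter sequences came from RefSeq (GRCm38.p6), which is not the build of the authors' alignment.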

Additional observations from a re-analysis of the deposited data

Results flagged for a closer look

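Of 24 groups of values examined, 2 had a sample far from the others of its genotype, and chance alone flags about 1 in 20 groups. *Bax* in *Atf6*-/- replicate 3, at 42.5 FPKM, stood above the other *Atf6*-/- cochleae. The same library had a skeletal muscle score of 2.42, against -1.85 to -0.18 in the other libraries, and its part in the *Bax* value was not tested. The pro-survival minus pro-death balance in *Atf6*-/- replicate 2, at 1.77, stood below the other *Atf6*-/- cochleae. The balance weights each gene equally on a log scale, so *Pmaip1*, near the floor, counts as much as *Bax*. *Pmaip1* was at 0.45 FPKM in that library, against 0.13 to 0.27 FPKM in the other *Atf6*-/- libraries, and its part in the balance was not tested.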

How the results depend on the processing

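The count of members at an unadjusted p of at most 0.05 went from 2 to 1 with the marrow score and to 1 without *Atf6*+/+ replicates 3 and 4, an alternative chosen after seeing the data. In the same order, the count of all genes went from 1592 to 851 and 1001, that of apoptosome and caspase genes from 2 to 0 and 0, that of regulators from 8 to 4 and 5, and that of other family genes from 3 to 1 and 2. The adjusted count of all genes was 11, and 6 with the marrow score. Rescaling to TPM left 1 apoptosome or caspase gene and moved the calls over all genes from 724 higher and 868 lower to 1389 and 439. Signs turned for *Bcl2* (-0.064 with the marrow score, -0.046 without the pair of libraries), *Mcl1* (0.030 with the marrow score), *Bax* (0.027 in TPM) and *Bad* (0.056 in TPM, 0.011 with median-of-ratios scaling), none called in the main fit or here. The cause was not tested.

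Replicate numbers gave no sign of pairing the samples. Deviations of same-numbered libraries correlated at 0.095, -0.12, -0.21, 0.12 and -0.040, and 1 of 5 *Atf6*+/+ and 0 of 5 *Atf6*-/- libraries correlated best with their own number. Tissue makeup also differed between libraries, so this check cannot exclude a shared litter or batch. With the replicate block, to which *Atf6*-/- replicate 6 adds nothing, 2 members were called, where 6.67% of all genes were, 1 apoptosome or caspase gene, and 4 genes after adjustment over all genes. *Bak1* was -0.0048 and *Bad* 0.017.

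With each library left out, the members called ranged from 1 to 2 (0 to 0 after adjustment, limma), all genes from 1197 to 1865 (8 to 13 after adjustment), other family genes from 2 to 4, apoptosome and caspase genes from 0 to 4 and regulators from 6 to 11. Log2 fold changes ranged from -1.18 to -1.10 for *Atf6*, 0.11 to 0.19 for *Bcl2l1*, -0.34 to -0.27 for *Bid*, -0.022 to 0.050 for *Bcl2*, -0.12 to -0.0013 for *Mcl1*, -0.069 to 0.036 for *Bax*, -0.031 to 0.029 for *Bak1*, -0.032 to 0.068 for *Bcl2l11*, -0.17 to 0.018 for *Bbc3*, -0.33 to -0.056 for *Pmaip1* and -0.061 to 0.032 for *Bad*, and the balance difference from 0.036 to 0.17. *Pmaip1* was not tested at a mean of at least 1 FPKM. With 2 decimals and no counts, counting error at low levels is unknown.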
